A study of Homo sapiens with 12 samples.

Results

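RMRP, RPPH1 and TERC are the RNA parts of RNase MRP, RNase P and telomerase, and they were followed here through the 12 libraries of a study of the RNA-binding protein RBMX. They were taken by symbol from a list of 6 RNAs that carry no poly(A) tail and are long enough to enter a standard library, and 3 of the 6 had a row among the 25268 genes of the expression table. RN7SK, RN7SL1 and RN7SL2, the 7SK RNA and the RNAs of the signal recognition particle, were not analysed here. RMRP and RPPH1 were put on that list because of their levels in total RNA of RBMX cells and control cells, so their values in total RNA are given as a description with no test. All 3 RNAs passed the filter on low values, a mean of at least 0.5 FPKM over the 12 libraries, which 14676 genes passed. TERC passed it only through its level in RBMX polysomal replicate 2, a library described below.

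The cells were HEK293, a human embryonic kidney line. They were transfected with 2 µg of a plasmid for His- and HA-tagged RBMX (pCMV6-HIS-HA-RBMX) or with the mock empty vector, in 3 biological replicates each, so that RBMX was added on top of the cells' own gene and transiently. Lysates of cells held in cycloheximide, which keeps ribosomes on their mRNAs, were cleared of nuclei by centrifugation and run on sucrose gradients. Total RNA was pooled from a share of every gradient fraction and polysomal RNA from the fractions with several ribosomes, which gave 4 groups of 3 libraries: control total, control polysomal, RBMX total and RBMX polysomal.

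RNase MRP cuts the precursor of ribosomal RNA, and mutations in its RNA cause cartilage-hair hypoplasia. RNase P removes the 5′ leader of tRNA precursors and also makes the 3′ ends of the long nuclear RNAs MALAT1 and NEAT1. The RNAs of both enzymes fold into a related core, share most of their protein partners and are made by RNA polymerase III, while TERC, which carries the template for telomere repeats, is made by RNA polymerase II and trimmed at its 3′ end. All 3 act mainly in the nucleus or nucleolus, whereas the lysates were depleted of nuclei, and the library kit named by the labels, TruSeq RNA with 500 ng of input, captures poly(A) tails in its standard form. A level below is thus what this protocol recovered of an RNA that lacks a tail.

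RMRP (ENSG00000269900) lies on chromosome 9 at 35657751 to 35658018 on the minus strand of GRCh38 (GENCODE v29), as 1 exon of 268 bases. RPPH1 (ENSG00000277209) lies on chromosome 14 at 20343075 to 20343407, also on the minus strand, with 333 bases. TERC (ENSG00000270141) lies on chromosome 3 at 169764520 to 169765060 on the minus strand, with 541 bases. The transcripts are non-coding, and their GC content was 63.1%, 64.6% and 66.7%. Their longest runs of A were 3, 2 and 6 bases. Some stretches are shown 5′ to 3′ from the GENCODE v29 transcripts: in RMRP and RPPH1 the capitals mark the longest stretch that both RNAs hold, 9 bases, in the first TERC stretch the template region, and in the second its longest run of A, which is longer than any in RMRP or RPPH1. Aligned end to end, RMRP and RPPH1 had the same base at 154 of 336 positions, or 45.8%. The alignment set no penalty on a mismatch, and the share for unrelated RNAs of these lengths was not measured.
RMRP, bases 233 to 262: caccaaccacACGGGGCTCattctcagcgc
RPPH1, bases 136 to 165: ttcccagagaACGGGGCTCcgcgcgaggtc
TERC, bases 37 to 66: attttttgtCTAACCCTAACtgagaagggc
TERC, bases 159 to 188: tctagagcaaacAAAAAAtgtcagctgctg
The shared 9 bases, ACGGGGCTC, were held in the RNA sequence itself by 64 of 63311 GENCODE transcripts of 200 to 600 bases, or 0.101%. That share is for this 1 stretch, picked because both RNAs hold it. How often 2 RNAs of these lengths share any 9 bases was not tested.

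Values were FPKM, fragments scaled by transcript length and by the size of the library. How far levels of different genes can be compared was not tested, for short RNAs or for RNAs without a tail. Read counts were not used here and the depth of each library is unknown. The FPKM of a library summed to between 817528 and 1903317, of which rows of small RNA genes took 40.6% to 72.9%. RBMX itself was listed at 87.4 to 147.8 FPKM in the 6 control libraries and at 1072 to 2073 FPKM in the 6 RBMX libraries, higher in the libraries labelled RBMX. All 7 marker genes fixed for HEK293 cells passed the filter, VIM among them at 217 to 577 FPKM, and of 6 markers of blood, liver, muscle and connective tissue 1 did, COL1A1 at 3.14 to 8.61 FPKM. Leaving out small RNA genes, replicates of a group correlated across genes with Spearman's rho of 0.976 to 0.998.

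One library bears on every mean in RBMX polysomal RNA. RBMX polysomal replicate 2 held RMRP, RPPH1 and TERC at 20.4, 19.0 and 4.46 times the mean of the other 2 RBMX polysomal libraries. All 3 RNAs were more than 2 times the higher of those 2 libraries, which held for 1.02% of all 14676 genes tested. For TERC, at 1.63 FPKM there, this is no separate result. Its mean over the other libraries lay under the 0.5 FPKM filter, so it was among the genes tested only through this library. The filter was set on all 12 libraries, also for fits that left this library out. Each comparison of the 3 RNAs that uses this library is therefore given with and without it. Control replicate 3 also stood apart, in both kinds of RNA: the 7 HEK293 markers summed to 359 FPKM in its total and 322 FPKM in its polysomal library, against 630 to 741 FPKM in the other libraries, and its total library held the highest RMRP, RPPH1 and TERC of the control libraries. The part of this in their levels was not tested.

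In total RNA, RMRP was listed at 126, 142 and 259 FPKM in control replicates 1 to 3 and at 6.93, 7.57 and 12.2 FPKM in RBMX replicates 1 to 3. The group means were 176 ± 72.7 and 8.90 ± 2.89 (SD, n = 3 each), a ratio of 19.8. The lowest control library was thus far above the highest RBMX library, with a log2 difference of −4.12 (SE 0.34) on the scale of log2(FPKM + 1), RBMX minus control. A lower level in bulk RNA does not tell fewer cells that hold an RNA from less of it in each cell.

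RPPH1 stood at 46.0, 140.1 and 153 FPKM in control total RNA and at 13.5, 11.4 and 16.7 FPKM in RBMX total RNA. Its means were 113 ± 58.4 and 13.9 ± 2.69 (SD, n = 3 each), a ratio of 8.15 and a log2 difference of −2.78 (SE 0.49). The control libraries were spread over more than the RBMX libraries were, replicate 1 being the low one, and the groups did not overlap.

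TERC had the lowest FPKM of the RNAs, at 0.669, 0.682 and 1.05 FPKM in control total RNA and at 0.341, 0.356 and 0.502 FPKM in RBMX total RNA. Its means were 0.799 ± 0.214 and 0.400 ± 0.0890 (SD, n = 3 each), a ratio of 2.00. TERC was not part of the choice of members by total RNA, and its log2 difference of −0.36 (SE 0.097) did not pass limma's moderated test over all genes (adjusted p = 0.184). The levels of all 3 RNAs lay lower in RBMX total RNA with no overlap between the groups, which held for 15.4% of the genes tested, and 0.164% of genes passed the test in either direction. Without control total replicate 3 the log2 differences were −3.81 (SE 0.25) for RMRP, −2.47 (SE 0.51) for RPPH1 and −0.26 (SE 0.060, limma adjusted p = 0.129) for TERC.

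**Figure D1:**
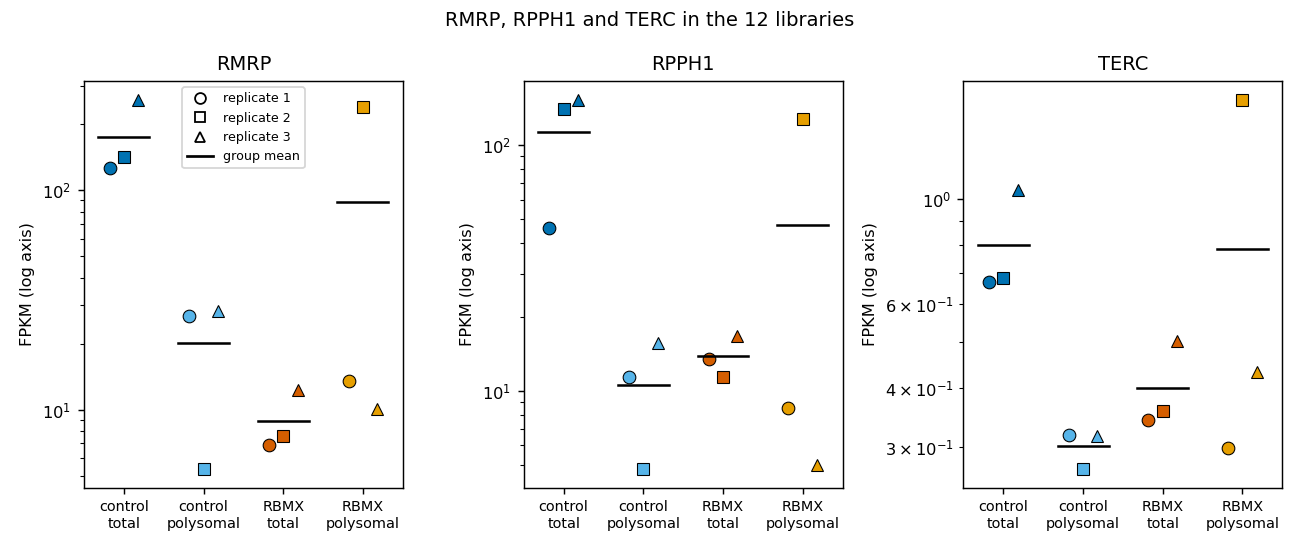
Level of RMRP, RPPH1 and TERC in FPKM (vertical log axes) in each of the 12 libraries, by group; points are libraries, marked by replicate, and lines are group means. All 3 RNAs are high in the 3 control total libraries and in RBMX polysomal replicate 2, where RMRP reaches 240.6 FPKM.

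In control cells the levels of the RNAs lay lower in polysomal than in total RNA. RMRP was at 26.8, 5.34 and 28.1 FPKM in control polysomal replicates 1 to 3 (mean 20.1 ± 12.8, SD, n = 3), 8.76 times below control total RNA. The 3 polysomal libraries lay under the lowest total library, replicate 2 being the lowest. The log2 difference was −3.28 (SE 0.68), polysomal minus total.

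RPPH1 followed at 11.4, 4.80 and 15.7 FPKM in control polysomal RNA (mean 10.6 ± 5.47, SD, n = 3), with control total RNA 10.7 times higher and a log2 difference of −3.25 (SE 0.62). Replicate 2 was again the lowest library. TERC was at 0.317, 0.269 and 0.315 FPKM (mean 0.300 ± 0.0275, SD, n = 3), with control total RNA 2.66 times higher. Its log2 difference of −0.46 (SE 0.089) did not pass limma's test over all genes (adjusted p = 0.461). For all 3 RNAs polysomal and total libraries of control cells did not overlap, against 7.31% of the genes tested that were lower in this way, and 0.0818% passed the test. The control total libraries also enter the comparison of RBMX with control in total RNA, so the 2 sets of differences share them and are not separate evidence.

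In polysomal RNA, RMRP was listed at 13.6, 240.6 and 10.1 FPKM in RBMX replicates 1 to 3, a mean of 88.1 ± 132 (SD, n = 3). Replicates 1 and 3 fell inside the range of the control polysomal libraries, and replicate 2 alone was above it. The log2 difference from control polysomal RNA was 0.97 (SE 1.35) and did not pass limma's test over all genes (adjusted p = 0.766). Without RBMX polysomal replicate 2 it was −0.44 (SE 0.78, adjusted p = 0.923), the opposite sign.

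RPPH1 was listed at 8.49, 128 and 5.01 FPKM in RBMX polysomal RNA, a mean of 47.2 ± 70.1 (SD, n = 3). Here too replicates 1 and 3 overlapped the control libraries and replicate 2 stood above them. The log2 difference was 0.87 (SE 1.23, limma adjusted p = 0.769), and −0.49 (SE 0.53, adjusted p = 0.879) without replicate 2. TERC was at 0.297, 1.63 and 0.432 FPKM (mean 0.785 ± 0.731, SD, n = 3), and its log2 difference of 0.38 (SE 0.27, limma adjusted p = 0.578) became 0.068 (SE 0.054, adjusted p = 0.841) without replicate 2. Exact two-sided permutation tests over the 6 libraries gave p = 0.8, 0.8 and 0.3 for RMRP, RPPH1 and TERC, where 0.1 is the smallest that 3 against 3 can give. Limma's test was passed by 0 of the 3 RNAs in polysomal libraries, against 0.0477% of the genes tested, and an unadjusted p under 0.05 was reached by 0 of 3, against 11.7%. For RMRP and RPPH1 the standard errors were larger than the differences, so these tests do not show equal levels. The polysomal libraries were not used to choose the members. By the protocol they come from the same lysates as the total libraries, although the labels also speak of separate dishes.

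**Figure D2:**
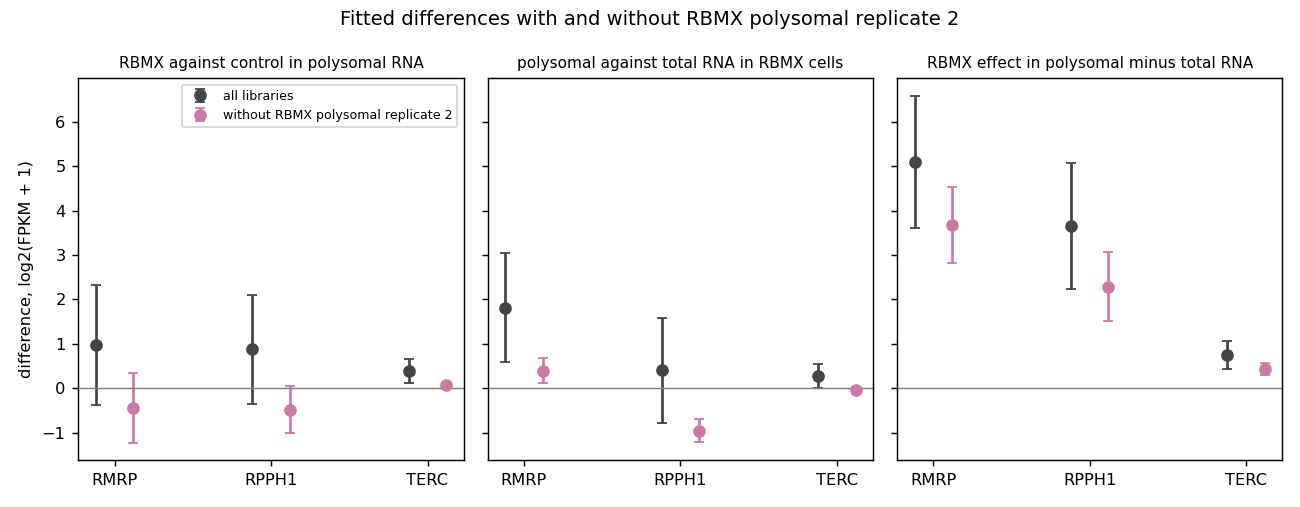
Log2 difference on the log2(FPKM + 1) scale with its standard error for RMRP, RPPH1 and TERC, with all libraries and without RBMX polysomal replicate 2. The comparisons shown are RBMX against control in polysomal RNA, polysomal against total RNA in RBMX cells, and the RBMX effect in polysomal minus total RNA. In polysomal RNA the RMRP difference moves from 0.97 to −0.44 and the RPPH1 difference from 0.87 to −0.49.

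Within RBMX cells, the log2 difference of RMRP, polysomal minus total, was 1.81 (SE 1.22), and 0.40 (SE 0.27) without replicate 2. For RPPH1 the values were 0.40 (SE 1.18) and −0.96 (SE 0.26), so the sign again rested on 1 library. Without it, the RPPH1 levels of 8.49 and 5.01 FPKM lay below the 3 total libraries at 11.4 to 16.7 FPKM, a lack of overlap shared by 18.4% of the genes tested. TERC gave 0.28 (SE 0.27, limma adjusted p = 0.578) and −0.037 (SE 0.074, adjusted p = 0.814), in a comparison where 1.34% of the genes tested passed.

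By the protocol total RNA was drawn from the fractions of the gradient, so libraries of the same vector and number were read as 1 culture with its own ratio of polysomal to total level, although the labels also speak of separate dishes. For RMRP the ratio was 0.212, 0.0376 and 0.108 in control cultures 1 to 3 and 1.96, 31.8 and 0.824 in RBMX cultures 1 to 3. For RPPH1 it was 0.247, 0.0342 and 0.102 in control and 0.628, 11.3 and 0.300 in RBMX cultures. For TERC it was 0.474, 0.394 and 0.301 in control and 0.872, 4.56 and 0.860 in RBMX cultures. Every RBMX culture had a higher ratio than every control culture for each RNA, which held for 2.79% of all genes tested, and for 8.55% when RBMX culture 2 was left out. This order follows in part from the low total RNA levels of RMRP and RPPH1 in RBMX cells, which are the values they were chosen by.

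Written as the RBMX effect in polysomal RNA minus that in total RNA, the difference was 5.10 (SE 1.49) for RMRP, 3.65 (SE 1.41) for RPPH1 and 0.74 (SE 0.31) for TERC on the log2 scale. Without RBMX polysomal replicate 2 the values were 3.68 (SE 0.85), 2.29 (SE 0.77) and 0.43 (SE 0.13). The TERC value was not past limma's test over all genes in either fit (adjusted p = 1.00 with all libraries), in which 0.0204% of the genes tested passed. The RMRP and RPPH1 values are descriptions, since the total libraries enter them.

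Ordered by group mean, RMRP ran from control total through RBMX polysomal and control polysomal to RBMX total. RPPH1 and TERC ran from control total through RBMX polysomal and RBMX total to control polysomal. The place of RBMX polysomal rested on replicate 2, and without it the mean was 11.8 FPKM for RMRP and 6.75 FPKM for RPPH1, both below control polysomal RNA, and 0.364 FPKM for TERC, below RBMX total RNA. RMRP in control polysomal RNA (5.34 to 28.1 FPKM) overlapped RBMX total RNA (6.93 to 12.2 FPKM), as did RPPH1 (4.80 to 15.7 against 11.4 to 16.7 FPKM), while TERC did not (0.269 to 0.317 against 0.341 to 0.502 FPKM).

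The ratio of RMRP to RPPH1 within a library does not depend on the scale of the library. In control cultures 1 to 3 it was 2.74, 1.01 and 1.69 in total RNA and 2.36, 1.11 and 1.79 in polysomal RNA, so a culture's ratio was close in both kinds of RNA while the levels differed several-fold. In RBMX polysomal RNA the ratio was 1.60, 1.88 and 2.01, and replicate 2, with its high levels, lay between the other 2. In RBMX total RNA it was 0.512, 0.666 and 0.731, below 1 in every library and below all 9 other libraries. This is a description, because the total RNA levels chose both genes.

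**Figure D3:**
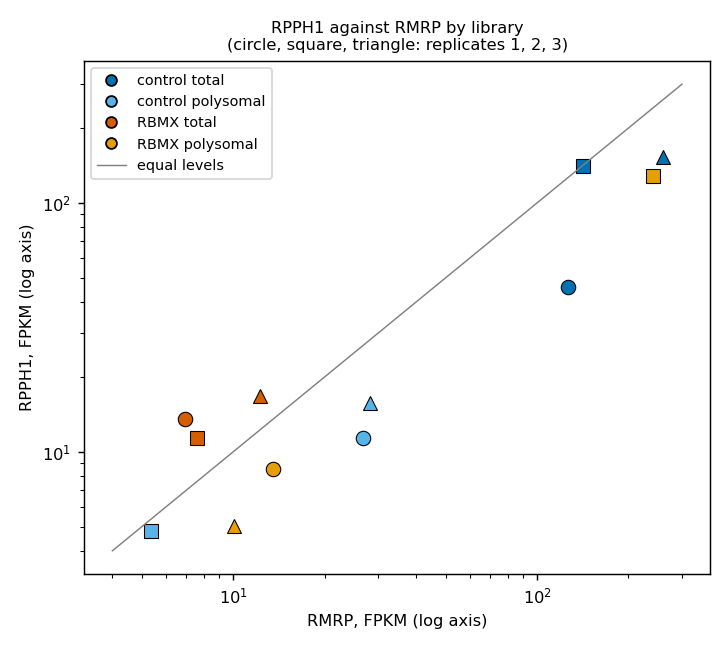
RPPH1 against RMRP in FPKM (both axes logarithmic) for the 12 libraries, coloured by group and shaped by replicate, with the line of equal levels. The 3 RBMX total libraries lie above the line, at ratios of RMRP to RPPH1 of 0.512 to 0.731, and RBMX polysomal replicate 2 lies beside the control total libraries.

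Over the 12 libraries the genes most like RMRP by Pearson's r of log2(FPKM + 1) were RPPH1 (0.935), SNORA74A (0.901), SCARNA10 (0.875), TERC (0.843) and HTR1D (0.841). For RPPH1 they were RMRP, SCARNA10 (0.850), TERC (0.850), SNORA74A (0.821) and TMEM151A (0.811). For TERC they were SCARNA2 (0.908), ZNF573 (0.901), SNORA37 (0.897), SCARNA5 (0.893) and SCARNA10 (0.874). Most of these are guide RNAs of small nucleolar or Cajal body ribonucleoproteins, which also lack a poly(A) tail. Without RBMX polysomal replicate 2, RMRP and RPPH1 had r of 0.918, and TERC and SCARNA2 0.758. The libraries share their scaling and, by the protocol, their cultures in pairs, so these values describe likeness over 12 libraries and were not tested. RMRP and RPPH1 were both chosen by their total RNA levels, which enter r, so their likeness is not separate from that choice.

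Other RNAs, most of them of kinds without a poly(A) tail, moved with the 3 RNAs in part of the libraries. The 73 listed histone genes of the replication-dependent kind, whose mRNAs mostly end in a stem-loop, summed to 547, 2313 and 568 FPKM in RBMX polysomal replicates 1 to 3. In replicate 2, 40 of the 49 that passed the filter (81.6%) were more than 2 times the higher of the other 2 RBMX polysomal libraries. The 11 long small Cajal body RNAs (scaRNAs), guides for modification of spliceosomal RNAs, summed to 61.2, 314 and 54.9 FPKM there, and 9 of 11 (81.8%) passed the same mark. MALAT1, a long nuclear RNA, was at 19.0, 64.2 and 8.64 FPKM, and NEAT1, another, at 111, 76.6 and 47.8 FPKM. RBMX polysomal replicate 2 was thus high in both gene classes as well as in RMRP, RPPH1 and TERC, and their part in the polysomal values of these RNAs was not tested. In the comparison of RBMX with control in polysomal RNA 43 of 49 histone genes were higher, with a median log2 difference of 0.41, and without this library 5 were higher and 44 lower, with a median of −0.41. The same held in sign for RMRP and RPPH1 but not for TERC.

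In total RNA the summed histone genes followed less. All 73 summed to 645, 639 and 662 FPKM in control and to 604, 603 and 565 FPKM in RBMX replicates 1 to 3. The 3 highest by mean, HIST1H2BK, HIST1H1C and HIST3H2A, held 161, 84.6 and 86.4 FPKM of the sum in control replicate 1. Their log2 differences were above 0, at 0.12, 0.21 and 0.37, so the sums changed less than most of the genes did. Of the genes that passed the filter, 42 of 49 were lower in RBMX and 32 did not overlap (15.4% of all genes tested), with a median log2 difference of −0.37 against 0.00 for all genes. HIST1H2AL, which codes for a histone H2A, was the 1 gene of the lists that passed limma's test (log2 difference −0.94, adjusted p = 0.0236), at 6.45 to 7.25 FPKM in control and 2.84 to 3.37 FPKM in RBMX total RNA. The scaRNAs summed to 147, 60.0 and 210 FPKM in control and to 91.5, 89.3 and 75.4 FPKM in RBMX total RNA, so that their groups overlapped through control replicate 2, the library in which RMRP stood at 142 and RPPH1 at 140.1 FPKM. Between control polysomal and control total RNA the histone genes had a median log2 difference of −0.01, with 24 higher and 25 lower, and the scaRNAs one of −0.83, with 9 of 11 lower. The part of these 2 gene classes in the total RNA values of RMRP, RPPH1 and TERC was not tested.

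**Figure D4:**
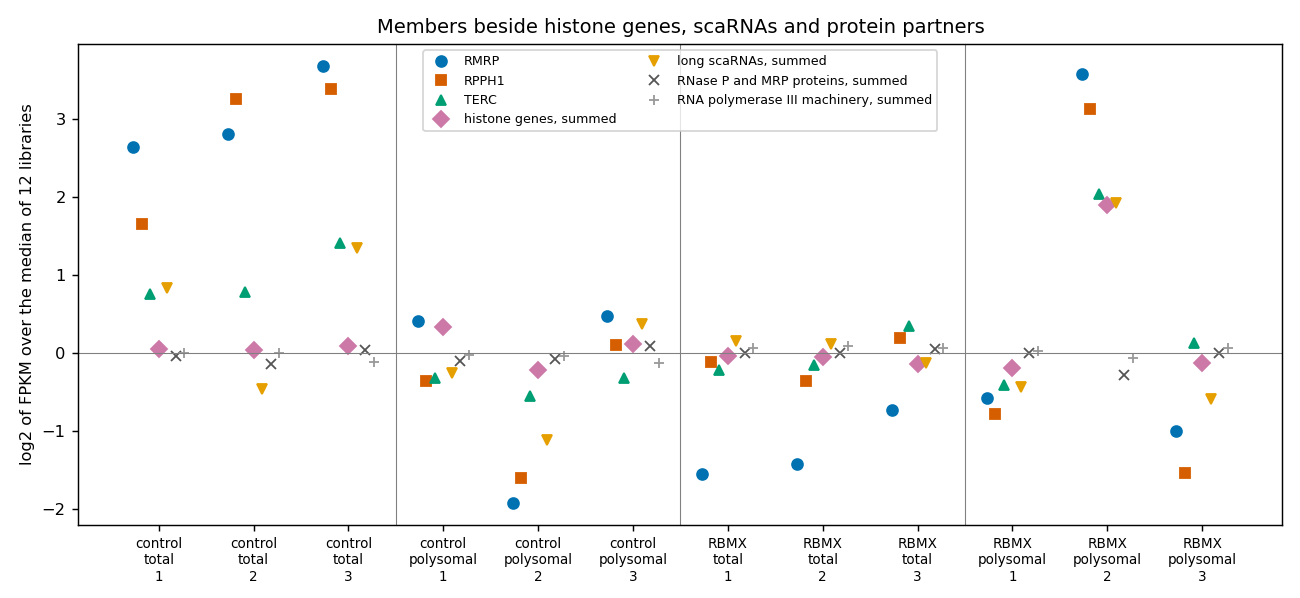
Log2 of FPKM over the median of the 12 libraries, for RMRP, RPPH1 and TERC and for the summed FPKM of histone genes, long scaRNAs, RNase P and MRP proteins and RNA polymerase III machinery. The histone sum is high beside RMRP, RPPH1 and TERC in RBMX polysomal replicate 2 (2313 FPKM) and is 639 to 662 FPKM in the control total libraries, and the sums of both protein lists lie near the 0 line in every library.

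No mRNA of a protein partner passed the test. Of 11 tested genes for RNase P and MRP proteins, 0 passed limma's test in any comparison, and in total RNA 7 were higher and 4 lower in RBMX cells, with a median log2 difference of 0.05 and a range of −0.04 to 0.21. For POP7, a subunit of both enzymes, the log2 difference was 0.20 in total RNA (adjusted p = 0.317 by limma) and −0.0073 among polysomal libraries (adjusted p = 0.989). RPP21, a subunit of RNase P, had −0.0088 (adjusted p = 0.976) and −0.11 (adjusted p = 0.771). POP5, another shared subunit, had −0.034 (adjusted p = 0.834) and −0.19 (adjusted p = 0.587).

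Of 34 genes for RNA polymerase III, its factors and its regulators, 0 passed limma's test, with 22 higher and 12 lower in RBMX total RNA and a median log2 difference of 0.08. POLR3K, a polymerase III subunit, had 0.08 in total RNA (limma adjusted p = 0.529). SSB, the La protein that holds the 3′ end of new polymerase III transcripts, had 0.26 (limma adjusted p = 0.644). It was at 167, 166 and 84.1 FPKM in control and at 159, 164 and 153 FPKM in RBMX total replicates 1 to 3. Without control replicate 3 the RBMX libraries all lay below the control libraries, so the sign for SSB rested on that library. Without it 20 of the 34 genes were higher and 14 lower, with a median of 0.049. Of 9 genes for telomerase proteins 9 were higher in total RNA, with a median of 0.12 and 0 past limma's test. Without control total replicate 3, where DKC1 was at 50.4 FPKM against 76.3 and 83.9 FPKM in replicates 1 and 2, 7 were higher and 2 lower, with a median of 0.053. DKC1, the dyskerin that binds TERC, had 0.25 in total RNA with all libraries (adjusted p = 0.518) and 0.30 in polysomal RNA (adjusted p = 0.579). Its polysomal levels were 86.7, 86.0 and 52.0 FPKM in control and 88.1, 88.2 and 93.9 FPKM in RBMX replicates 1 to 3. Control replicate 3 was thus the low library there too. Of the 9 genes, 7 were higher and 2 lower among polysomal libraries, the lower ones being NHP2 (−0.21) and NOP10 (−0.34). For total RNA these 2 genes had differences of 0.025 and 0.012.

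The partners of 7SK RNA and of the signal recognition particle RNAs were tested as well. Of 11 genes for 7SK and P-TEFb proteins 0 passed limma's test, with a median log2 difference of 0.03 in total and 0.09 in polysomal RNA. LARP7, which binds 7SK RNA, had 0.26 in total RNA (adjusted p = 0.360) and CDK9, the kinase of P-TEFb, 0.21 (adjusted p = 0.281). Of 8 genes for signal recognition particle proteins 0 passed, with medians of 0.04 and 0.06, and SRP9 had −0.19 in total RNA (adjusted p = 0.508). Without RBMX polysomal replicate 2 the medians in polysomal RNA were 0.033 for RNase P and MRP proteins, against −0.044 with it, 0.058 for 7SK and P-TEFb proteins, 0.0998 for signal recognition particle proteins, 0.17 for telomerase proteins and 0.089 for RNA polymerase III genes, with 0 past limma's test. Over the 5 protein lists together, 13 of 73 genes, or 17.8%, had an unadjusted limma p under 0.05 in total RNA, beside 18.8% of all genes tested. In polysomal RNA 5.48% did, beside 11.7%, between polysomal and total RNA of control cells 2.74%, beside 8.04%, and of RBMX cells 19.2%, beside 23.0%. For the RBMX effect in polysomal minus total RNA 0 did, beside 0.600%.

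Neighbouring genes were read for a shift of the whole locus and were picked from the annotation after values were seen. CCDC107, 271 bases from RMRP on the other strand, had means of 9.64 FPKM in control and 9.95 FPKM in RBMX total RNA (log2 difference 0.05, limma adjusted p = 0.853). PARP2, a DNA repair enzyme gene 174 bases from RPPH1 on the other strand, had 34.9 and 42.6 FPKM (0.28, adjusted p = 0.238), with RBMX libraries above control libraries and no overlap, as for 11.9% of the genes tested. ACTRT3, 1860 bases from TERC, had 1.70 and 2.05 FPKM (0.18, adjusted p = 0.251), also with no overlap. ARHGEF39, read with the RMRP locus, lay lower with no overlap in RBMX total RNA (−0.19, adjusted p = 0.344) and in RBMX polysomal RNA (−0.32, adjusted p = 0.407), as did 15.4% and 12.5% of the genes tested. LRRC34, read with the TERC locus, had −0.079 in total RNA (adjusted p = 0.551). RMRP, RPPH1 and TERC overlap other annotation records at the same place, so reads of those records cannot be told apart from theirs.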

How the data were processed

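The authors deposited FPKM values for 12 libraries, per the labels made with the TruSeq RNA kit; the submitters' processing notes name CASAVA 1.8, TopHat2 2.0.13, Cufflinks 2.2.1, Cuffnorm and hg19. Coordinates and sequences came from GENCODE v29 (GRCh38), matched by symbol for 3 of 3 members, and no hg19 coordinate was used. All 12 columns were matched to samples by name. Differences were tested with limma 3.58.1 in R 4.3.3 on log2(FPKM + 1), with a mean-variance trend and Benjamini-Hochberg adjustment over 14676 genes with a mean of at least 0.5 FPKM, at a threshold of 0.05, and the fit was tested on simulated data. This scale understates changes of low genes such as TERC. Genes named from a list were among its 3 highest by mean FPKM or past the threshold, and the 5 most like genes were named for each member. Members and lists were chosen with earlier results of these data known. The protocol draws total RNA from the gradient's fractions but also mentions separate dishes, so pairing within a vector is uncertain: deviations of same-numbered libraries correlated at 0.618 to 0.847 in control and 0.0208 to 0.684 in RBMX cells, and between control and RBMX cells at −0.160 to 0.347. For control total replicate 1 and RBMX total replicates 1 and 2 the closest polysomal library of the same vector had another number. Alternatives were a pseudocount of 0.1, no filter, median-ratio rescaling, a replicate block and leaving out each library. Depth was unknown, so no counting interval was given.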

Additional observations from a re-analysis of the deposited data

How the results depend on the processing

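Without RBMX polysomal replicate 2 the sign turned for RMRP (−0.44) and RPPH1 (−0.49) in polysomal RNA against control and for TERC (−0.037) and RPPH1 (−0.96) in polysomal against total RNA of RBMX cells, and the RPPH1 difference between the RBMX effects in the 2 kinds of RNA went from 3.65 to 2.29. Leaving out 1 library at a time, differences in polysomal RNA ran from −0.44 to 1.78 for RMRP and from −0.49 to 1.72 for RPPH1, TERC in RBMX cells from −0.037 to 0.47, and the RPPH1 difference of effects from 2.29 to 4.50. In total RNA every such difference was below 0 for RMRP (−4.35 to −3.81), RPPH1 (−3.33 to −2.47) and TERC (−0.41 to −0.26), and likewise between polysomal and total RNA of control cells. A pseudocount of 0.1 in place of 1 gave TERC −0.84 in total RNA. TERC did not pass the limma test in any setting, nor did RMRP or RPPH1 in polysomal RNA.

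Counts of all genes past the limma threshold were small and moved more. In polysomal RNA, total RNA, control cells, RBMX cells and the difference of effects they were 7, 24, 12, 196 and 3. With no filter they were 31 in polysomal RNA, 77 in total RNA and 61 in RBMX cells. With a replicate block they were 3, 13, 6, 4 and 5, and the block changed no call for TERC in any comparison or for RMRP and RPPH1 in polysomal RNA. Leaving out 1 library gave 9 to 126, 19 to 178, 12 to 26, 10 to 42 and 3 to 7, with 126 without RBMX polysomal replicate 3 and 178 without RBMX total replicate 3. The cause of these moves was not tested. The depth of the libraries is unknown, so no detection limit could be given for TERC, the lowest of the 3 RNAs in FPKM.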
